A study of Mus musculus with 28 samples.

Results

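The response of Th17 cells to a second encounter with antigen receptor signals was followed 15 days after their transfer into mice, by setting 4 restimulated arrays against 4 unstimulated ones, 8 of the 28 arrays of the study. Both groups held CD4+ T cells from mice labelled BwTRP1 Rag1-/-, which carry a transgenic T cell receptor for TRP1, a melanocyte protein, and lack Rag1. The cells were primed for 7 days in culture with TRP1 peptide on irradiated splenocytes under Th17 conditions (IL-1, IL-6, IL-21, TGF-beta 2, then IL-23, with antibodies to IL-2, IL-4 and IFN-gamma, and IL-2 in the later medium). They were then given to B6.PL mice irradiated with 5 Gy, a dose called sublethal, so the recipients kept cells of their own. On day 15, cells were recovered from pooled spleens and inguinal lymph nodes by CD4 enrichment and by sorting for Thy1.2, the marker that tells donor from host.

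The restimulated group was exposed to anti-CD3 and anti-CD28 in vitro for 2 h, and the unstimulated group was the other part of each divided sample. What the unstimulated part went through during those 2 h is not stated, so time in culture and signalling cannot be told apart. The arrays were chosen by their titles alone. Th17 cells of day 5 (3 restimulated and 3 unstimulated arrays) and Th1 cells of day 15 (2 and 2) were taken through the same steps. They are compared to show where the response of day 15 Th17 cells differs. Together with Th1 cells of day 5 (3 and 3), they also enter the limma fit of 24 post-transfer arrays, which share 1 estimate of scatter. Whether the replicates of a group were separate animals, pools or cultures is not stated. The p-values below reflect the scatter among those 24 arrays alone, which may be technical. Values are log2 RMA units, and 4 values in a row are always replicates 1, 2, 3 and 4 of a group.

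T cell receptor and CD28 signals reach the nucleus through calcium and NFAT, through MAP kinases and the AP-1 factors of the Fos and Jun families, and through NF-kB. Immediate early genes need no new protein and come first, cytokine genes and surface receptors follow, and inhibitors made in the same wave (IkB proteins, A20, dual specificity phosphatases, CTLA-4, PD-1) later damp the signal. Th17 cells are defined by IL-17A and IL-17F, and after transfer they can come to make IFN-gamma, the Th1 cytokine.

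T cell genes stood high on all 8 arrays: the mean of the 10 measured genes of the T cell list lay between 11.70 and 11.77 on restimulated arrays and between 11.59 and 11.82 on unstimulated ones. Cd4 was at 12.90, 13.00, 13.03 and 13.04 in restimulated cells, against 13.10, 13.01, 12.91 and 13.12 in unstimulated cells, with overlapping groups. Array medians over all probe sets were 6.97 to 7.07 in restimulated cells and 6.87 to 7.02 in unstimulated cells. Correlations within a group were 0.991 to 0.996 among restimulated and 0.990 to 0.997 among unstimulated arrays. On the first principal component (61.5% of the variance over 9969 genes) restimulated arrays lay between 9.04 and 28.75, with replicate 1 the farthest out, and unstimulated arrays between -18.29 and -16.97. Unstimulated replicate 3 stood apart on the second component (16.6%), at 21.72 against -9.20 to 7.69 for the other 7 arrays. Markers of red cell precursors were also present in both groups, and they are set apart near the end of the restimulation results.

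Restimulation moved many genes by small amounts and a small number by large ones. Of 19938 genes tested with limma, 1293 (6.49%) were higher in restimulated cells and 2205 (11.1%) lower at an adjusted p under 0.05, and the median change of all genes was -0.08 on the log2 scale. Among those that moved at least 2-fold the balance was the other way, with 208 genes (1.04%) higher and 63 (0.316%) lower. Without restimulated replicate 2 the lower count was 1349. The split depends on scaling: 37.0% of called genes were higher as deposited, 55.7% after cyclic loess and 14.9% with each array centred on its median. Changes of under about 0.1 log2 units therefore have no settled sign.

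**Figure D1:**
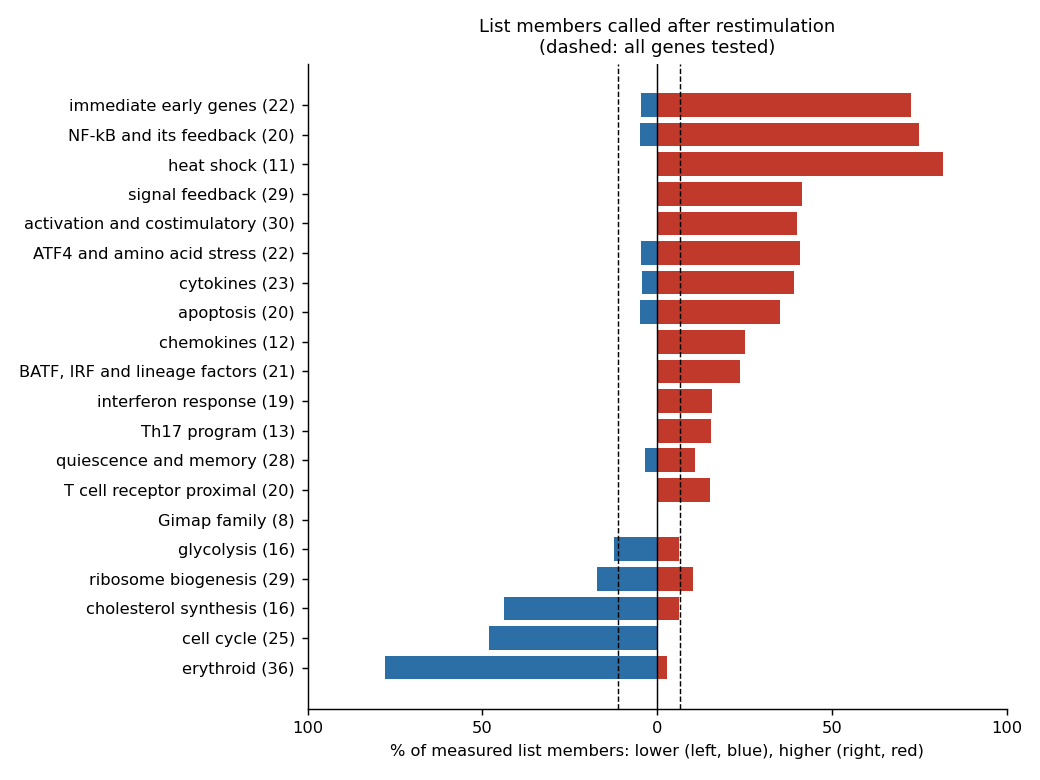
Share of the measured members of gene lists (number in parentheses) that passed the test as higher (red, right) or lower (blue, left) in restimulated than in unstimulated Th17 cells of day 15, in percent. The lists shown are a selection from the 32. Dashed lines mark the shares over all genes tested, 6.49% higher and 11.1% lower. Immediate early, NF-kB and heat shock genes lie mostly to the right, and erythroid, cell cycle and cholesterol genes to the left.

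Immediate early genes led the response. Of 22 measured members 16 were higher (6.49% of all genes were), 15 of them at least 2-fold, and only Srf was lower, with a list median of 1.58 against -0.08 for all genes. Nr4a2 (probe set 10482772), an orphan nuclear receptor, was at 12.69, 11.86, 11.53 and 11.32 in restimulated cells, against 8.13, 7.26, 7.17 and 7.46 in unstimulated cells. The groups lay over 3 log2 units apart and did not overlap (log2 change 4.34 ± 0.24 SE, 20.3-fold higher, limma adjusted p = 4.05e-11). Its relatives moved with it. Nr4a1 (probe set 10427035), known as Nur77 and used as a reporter of antigen receptor signalling, was at 13.31, 12.96, 12.74 and 12.75 in restimulated cells, against 10.14, 9.98, 9.96 and 9.95 in unstimulated cells (log2 change 2.93 ± 0.14 SE, 7.63-fold higher, limma adjusted p = 1.31e-12). Nr4a3 was at 12.80, 11.90, 11.44 and 11.26 in restimulated cells, against 8.75, 8.49, 8.45 and 8.62 in unstimulated cells (log2 change 3.27 ± 0.26 SE, 9.65-fold higher, limma adjusted p = 7.22e-09). In all 3 family members the highest restimulated array was replicate 1, and no array of one group reached the other. Over all genes 7.08% were so separated as higher and 11% as lower.

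The stress-responsive factor Atf3 (probe set 10361091) was at 11.88, 11.70, 10.92 and 11.41 in restimulated cells, against 7.52, 6.96, 7.67 and 7.30 in unstimulated cells (log2 change 4.11 ± 0.24 SE, 17.3-fold higher, limma adjusted p = 5.19e-11). Fosb (probe set 10560481), which pairs with Jun proteins in AP-1, was at 12.53, 12.81, 12.16 and 12.39 in restimulated cells, against 9.96, 8.52, 7.55 and 7.71 in unstimulated cells (log2 change 4.04 ± 0.44 SE, 16.4-fold higher, limma adjusted p = 9.06e-07). Fos was at 10.81, 11.19, 10.42 and 10.73 in restimulated cells, against 9.52, 8.64, 7.68 and 7.51 in unstimulated cells (log2 change 2.45 ± 0.38 SE, 5.46-fold higher, limma adjusted p = 7.13e-05). In Fosb and Fos the restimulated arrays lay closer together than the unstimulated ones, and unstimulated replicate 1 stood above the other 3 unstimulated arrays. Olfr1444, which the annotation gives as an olfactory receptor gene and which has no role in these lists, was at 7.75, 8.86, 9.03 and 7.62 in restimulated cells, against 5.30, 5.47, 5.70 and 5.44 in unstimulated cells (log2 change 2.84 ± 0.33 SE, 7.14-fold higher, limma adjusted p = 2.41e-06). Its unstimulated values lay well below the array medians. Egr2, which restrains T cell activation, was at 12.46, 11.39, 10.91 and 11.01 in restimulated cells, against 9.99, 9.77, 9.87 and 9.86 in unstimulated cells (log2 change 1.57 ± 0.26 SE, 2.97-fold higher, limma adjusted p = 1.80e-04), with restimulated replicate 1 again the highest.

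Further members that rose, named after their values were seen, were Maff (2.35), Fosl2 (2.32), Jun (1.80), Fosl1 (1.73), Egr1 (1.58), Junb (1.19), Ier5 (1.09), Egr3 (1.01) and Ier2 (0.92), all as log2 changes. The Egr3 call was lost without both arrays numbered 1 (log2 change 0.67, adjusted p = 0.0822). Myc, a growth regulator that T cell receptor signals induce, did not pass the test: it was at 11.87, 10.75, 10.66 and 10.70 in restimulated cells, against 11.16, 11.03, 10.60 and 11.01 in unstimulated cells (adjusted p = 0.913), with only restimulated replicate 1 above every unstimulated array. Srf, the serum response factor, differed by -0.28 (adjusted p = 0.0391). That call was lost without any one of restimulated replicates 1, 2 or 3 or unstimulated replicates 1, 2 or 4 (adjusted p = 0.0524 to 0.112).

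**Figure D2:**
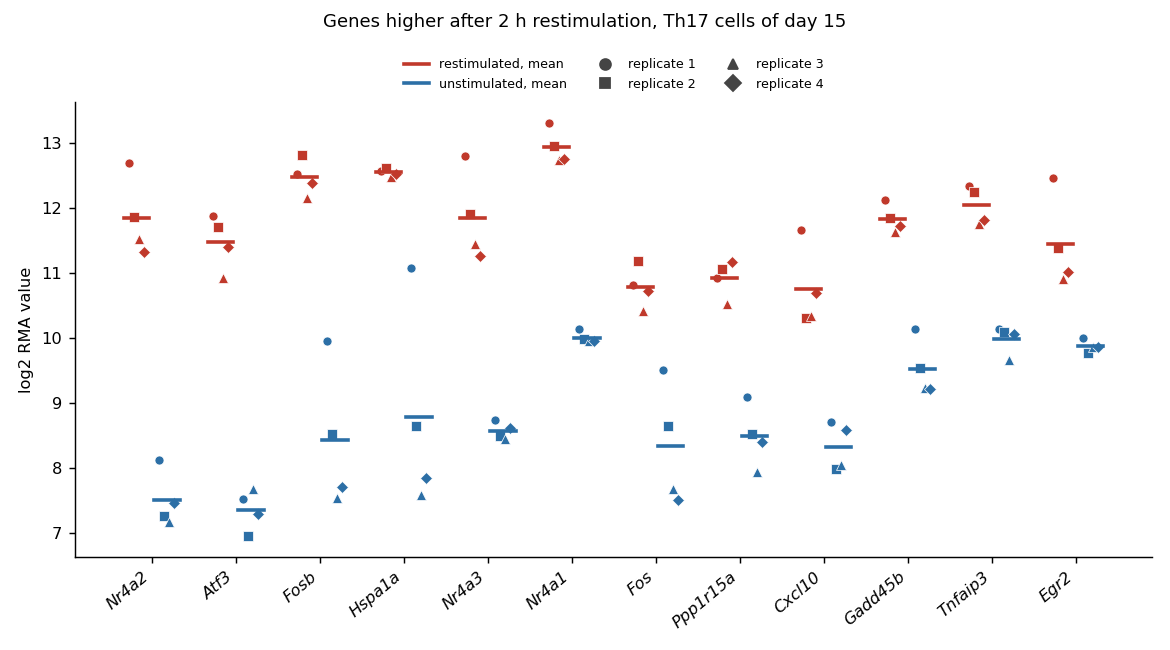
Log2 RMA values of 12 genes that rose, in restimulated (red, left of each pair) and unstimulated (blue, right) Th17 cells of day 15. Each point is an array, its shape gives the replicate number, and the bar is the group mean. The groups do not overlap for any of the 12 genes, which the rule that named them required of all but Gadd45b, Tnfaip3 and Egr2. Unstimulated replicate 1 is the highest blue point for every gene plotted but Atf3, and stands farthest out for Fosb, Fos and Hspa1a.

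Below are the promoters of 5 genes that rose, chosen because they stand for different branches of the response (a cytokine, a chemokine, both main NF-kB inhibitors and a stress phosphatase subunit). Each run gives 250 bases before and 50 after the transcription start from RefSeq (GRCm38.p6), 5′ to 3′ on the gene's own strand. Capitals mark matches, on either strand, to short forms of 5 motifs: AP-1 (TGANTCA), CRE (TGACGTCA), NFAT (GGAAAA), kappa B (GGG, any 3 bases, TTCC) and the interferon-stimulated response element (GAAA, any 2 bases, GAAA). These letters were picked with the matches in view, and no 2 matches shown overlap. Tnfaip3 has 2 starts in the table, and the first is shown.
Il2 promoter, chr3:37125905-37126204, minus strand: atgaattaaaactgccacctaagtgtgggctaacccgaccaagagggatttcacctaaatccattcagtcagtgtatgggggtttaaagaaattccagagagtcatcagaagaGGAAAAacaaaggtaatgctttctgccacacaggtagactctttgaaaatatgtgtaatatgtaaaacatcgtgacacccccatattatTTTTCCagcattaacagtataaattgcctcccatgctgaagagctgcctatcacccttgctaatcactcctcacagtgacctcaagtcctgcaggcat
Cxcl10 promoter, chr5:92348840-92349139, minus strand: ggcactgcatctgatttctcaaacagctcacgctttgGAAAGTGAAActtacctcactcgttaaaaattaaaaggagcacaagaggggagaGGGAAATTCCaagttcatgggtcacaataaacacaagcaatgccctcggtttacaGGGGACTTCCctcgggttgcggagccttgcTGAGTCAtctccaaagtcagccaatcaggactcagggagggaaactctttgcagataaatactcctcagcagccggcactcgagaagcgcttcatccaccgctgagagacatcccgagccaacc
Nfkbia promoter, chr12:55492598-55492897, minus strand: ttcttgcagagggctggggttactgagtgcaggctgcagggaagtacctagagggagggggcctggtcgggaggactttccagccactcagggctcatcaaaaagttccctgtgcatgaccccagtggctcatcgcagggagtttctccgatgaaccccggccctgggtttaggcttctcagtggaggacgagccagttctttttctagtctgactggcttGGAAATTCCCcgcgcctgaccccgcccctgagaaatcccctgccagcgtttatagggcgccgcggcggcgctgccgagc
Tnfaip3 promoter, chr10:19015361-19015660, minus strand: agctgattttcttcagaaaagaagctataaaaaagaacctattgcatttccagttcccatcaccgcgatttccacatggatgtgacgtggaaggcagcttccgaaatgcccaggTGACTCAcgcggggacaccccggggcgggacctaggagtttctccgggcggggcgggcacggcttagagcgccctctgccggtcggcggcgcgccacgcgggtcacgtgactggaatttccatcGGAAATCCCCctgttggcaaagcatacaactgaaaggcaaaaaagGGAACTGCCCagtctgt
Ppp1r15a promoter, chr7:45526219-45526518, minus strand: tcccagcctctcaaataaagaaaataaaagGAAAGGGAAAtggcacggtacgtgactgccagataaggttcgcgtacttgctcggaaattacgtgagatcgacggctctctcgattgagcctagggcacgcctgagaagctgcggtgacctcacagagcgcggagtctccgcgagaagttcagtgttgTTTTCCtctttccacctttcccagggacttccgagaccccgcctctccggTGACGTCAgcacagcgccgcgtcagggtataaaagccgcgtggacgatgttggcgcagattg

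The Il2 promoter held 2 NFAT cores, starting 137 and 48 bases before the start (-137 and -48), the second read on the opposite strand. Cxcl10 held the interferon element at -213, kappa B letters at -159 and -104 and an AP-1 match at -74. Nfkbia held kappa B letters at -29. Tnfaip3 held an AP-1 match at -136 and kappa B letters at -12 and 34. Ppp1r15a held the CRE at -12, an NFAT core at -62 and the interferon element letters at -220.

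Over the 134 of the 208 genes higher by at least 2-fold that matched a promoter, 8.96% held the CRE letters, against 2.72% of the 15614 measured genes with a promoter and 1.79% of all 32851 promoters in the table. AP-1 letters were in 11.9%, against 8.08% and 7.81%. Kappa B letters were in 10.4%, against 6.44% and 5.56%. The interferon element was in 5.97%, against 3.89% and 3.44%, and the NFAT core in 25.4%, against 25.0% and 23.4%. Of the 48 promoters of genes lower by at least 2-fold, 0 held the CRE letters, 12.5% held AP-1 letters and 33.3% the NFAT core. Kappa B letters and the interferon element were in 4.17% each. The AP-1 share was thus no lower among genes that fell than among genes that rose. These shares describe letters in a window and were not tested.

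NF-kB subunits and inhibitors rose together. Of 20 measured genes 15 were higher and 1 lower (6.49% and 11.1% of all genes were), with a list median of 0.50. Tnfaip3 (probe set 10368144), which encodes the ubiquitin-editing inhibitor A20, was at 12.34, 12.24, 11.76 and 11.82 in restimulated cells, against 10.13, 10.10, 9.67 and 10.06 in unstimulated cells (log2 change 2.05 ± 0.13 SE, 4.14-fold higher, limma adjusted p = 2.28e-10). Every restimulated array lay more than 1.5 log2 units above every unstimulated one. Nfkbia, the inhibitor IkB alpha whose promoter is shown above, was at 12.16, 12.12, 11.77 and 12.10 in restimulated cells, against 11.29, 11.17, 11.03 and 11.21 in unstimulated cells (log2 change 0.86 ± 0.10 SE, 1.82-fold higher, limma adjusted p = 2.74e-06). The shift was smaller than that of A20, and the groups were as fully separated.

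Among nuclear IkB proteins, Nfkbid was at 12.03, 11.54, 11.14 and 11.19 in restimulated cells, against 9.98, 9.68, 9.72 and 9.86 in unstimulated cells (log2 change 1.67 ± 0.18 SE, 3.17-fold higher, limma adjusted p = 7.82e-07). Nfkbiz, whose product also serves Th17 differentiation, was at 11.10, 10.86, 10.64 and 10.80 in restimulated cells, against 9.29, 9.25, 9.40 and 9.41 in unstimulated cells (log2 change 1.51 ± 0.11 SE, 2.85-fold higher, limma adjusted p = 1.75e-09). Rel, the NF-kB subunit c-Rel, was at 12.46, 12.01, 11.85 and 11.58 in restimulated cells, against 10.55, 10.48, 10.66 and 10.61 in unstimulated cells (log2 change 1.41 ± 0.16 SE, 2.65-fold higher, limma adjusted p = 1.26e-06). None of these 3 genes overlapped between the groups. Relb (0.91), Nfkb2 (0.86) and the survival factor Birc3 (0.74), named after their values were seen, were among the others that rose, as log2 changes. The 1 lower member was Tnfaip2, at 7.47, 7.00, 7.34 and 7.61 in restimulated cells, against 8.88, 8.62, 8.23 and 8.75 in unstimulated cells (log2 change -1.27 ± 0.24 SE, 2.41-fold lower, limma adjusted p = 5.85e-04). It takes its name from induction by TNF in endothelial cells, and it stood highest in the same unstimulated arrays as the erythroid markers, replicates 1 and 4.

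Feedback on the receptor pathway showed the same direction, with 12 of 29 genes higher (6.49% of all genes were) and 0 lower (median 0.44). Dusp4, a phosphatase of MAP kinases, was at 10.30, 9.41, 8.85 and 8.79 in restimulated cells, against 7.29, 7.11, 7.27 and 7.39 in unstimulated cells (log2 change 2.07 ± 0.24 SE, 4.2-fold higher, limma adjusted p = 1.94e-06). Rgs1, a regulator of G protein signals that slows migration to chemokines, was at 12.07, 11.40, 10.99 and 11.18 in restimulated cells, against 9.96, 9.23, 8.73 and 9.53 in unstimulated cells (log2 change 2.05 ± 0.23 SE, 4.13-fold higher, limma adjusted p = 1.04e-06). Rgs2 was at 10.34, 10.48, 9.56 and 9.84 in restimulated cells, against 8.80, 8.30, 7.54 and 7.95 in unstimulated cells (log2 change 1.91 ± 0.24 SE, 3.75-fold higher, limma adjusted p = 6.53e-06). All 3 were separated without overlap. Rgs16 rose by 1.82 (adjusted p = 6.98e-04), and its restimulated replicate 1, at 11.56, was about 2 log2 units above the other 3 restimulated arrays. Dusp1 (1.75), and Zc3h12a (1.56) and Zfp36 (1.49), whose proteins help destroy cytokine mRNAs, were also seen to rise and are named for that reason.

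At the cell surface, 12 of 30 activation and costimulatory genes were higher (6.49% of all genes were) and 0 lower (median 0.38). Without restimulated replicate 1 that count was 5, so many of these calls rested on this array. Cd69, an early activation marker that holds cells in tissue, was at 12.63, 12.49, 12.03 and 12.12 in restimulated cells, against 10.75, 10.42, 10.06 and 10.67 in unstimulated cells (log2 change 1.84 ± 0.15 SE, 3.58-fold higher, limma adjusted p = 1.36e-08). The groups lay over 1 unit apart. Fas, the death receptor, was at 9.05, 8.77, 8.71 and 8.52 in restimulated cells, against 7.97, 8.19, 7.75 and 8.09 in unstimulated cells (log2 change 0.76 ± 0.11 SE, 1.7-fold higher, limma adjusted p = 4.81e-05), and its ligand Fasl was at 10.27, 9.68, 9.03 and 9.02 in restimulated cells, against 8.66, 8.51, 8.27 and 8.63 in unstimulated cells (log2 change 0.98 ± 0.24 SE, 1.97-fold higher, limma adjusted p = 0.00656). Fasl was highest in restimulated replicates 1 and 2, and neither gene overlapped. Il2ra, the high-affinity chain of the IL-2 receptor, was at 12.56, 11.59, 11.60 and 11.57 in restimulated cells, against 11.30, 11.21, 10.80 and 11.40 in unstimulated cells (adjusted p = 0.0136), a call lost without restimulated replicate 1 (log2 change 0.41, adjusted p = 0.06) or unstimulated replicate 3 (adjusted p = 0.0534).

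Of 11 inhibitory receptor genes 3 were higher (6.49% of all genes were) and 0 lower. Cd274, which encodes PD-L1, was at 11.99, 11.53, 11.14 and 11.32 in restimulated cells, against 10.08, 9.92, 10.04 and 10.16 in unstimulated cells (log2 change 1.44 ± 0.13 SE, 2.72-fold higher, limma adjusted p = 6.51e-08). Ctla4 was at 11.03, 10.88, 10.43 and 10.45 in restimulated cells, against 9.59, 9.28, 9.62 and 9.51 in unstimulated cells (log2 change 1.20 ± 0.13 SE, 2.29-fold higher, limma adjusted p = 6.20e-07). Both were separated in all arrays. Pdcd1, which encodes PD-1, was at 10.90, 9.81, 10.03 and 9.85 in restimulated cells, against 9.42, 9.39, 9.50 and 9.64 in unstimulated cells (adjusted p = 0.0186), and the call was lost without restimulated replicate 1 (log2 change 0.41, adjusted p = 0.0839) or unstimulated replicate 2 (adjusted p = 0.0526).

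Of 23 measured cytokine genes 9 were higher (6.49% of all genes were), with the highest values on 1 array. At least 2-fold rises were called in 8 of them (1.04% of all genes). One gene, Il9 (-0.26), was lower, and the list median was 0.44. The mean of the list was 9.35, 8.05, 8.43 and 8.28 on restimulated arrays, against 7.86, 7.73, 7.77 and 7.82 on unstimulated arrays. All restimulated arrays lay above all unstimulated ones, and replicate 1 stood far above the other 3. The Il9 call was lost without any 1 of the 8 arrays except restimulated replicate 4 (adjusted p = 0.0514 to 0.145).

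Il2 (probe set 10497878), the growth factor of T cells, was at 11.89, 8.32, 9.59 and 8.43 in restimulated cells, against 6.85, 6.91, 6.59 and 6.78 in unstimulated cells (log2 change 2.78 ± 0.48 SE, 6.85-fold higher, limma adjusted p = 2.79e-04). Il3 (probe set 10385918), a growth factor of haematopoietic cells, was at 11.42, 6.12, 8.21 and 6.67 in restimulated cells, against 5.11, 5.01, 4.68 and 4.83 in unstimulated cells (log2 change 3.19 ± 0.71 SE, 9.15-fold higher, limma adjusted p = 0.00271). In both genes the highest restimulated array was replicate 1, followed by replicate 3. Without replicate 1 the log2 change of Il3 was 2.09 (adjusted p = 0.00402). Csf2, which encodes GM-CSF, was at 10.94, 7.70, 8.45 and 8.01 in restimulated cells, against 7.34, 6.76, 7.00 and 7.14 in unstimulated cells (log2 change 1.72 ± 0.50 SE, 3.28-fold higher, limma adjusted p = 0.0203). Il13, a Th2 cytokine, was at 11.42, 7.98, 8.68 and 8.68 in restimulated cells, against 7.71, 7.36, 7.94 and 7.50 in unstimulated cells (log2 change 1.56 ± 0.48 SE, 2.96-fold higher, limma adjusted p = 0.0251). For Csf2 and Il13 replicate 1 stood at least 2 log2 units above the other restimulated arrays. Without it their log2 changes were 0.99 (adjusted p = 0.0831) and 0.82 (adjusted p = 0.0863), and without unstimulated replicate 2 their adjusted p were 0.0584 and 0.0684.

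Ifng and Tnf stood high without restimulation and rose further. Ifng was at 13.23, 11.96, 12.13 and 11.95 in restimulated cells, against 11.46, 11.06, 10.73 and 11.23 in unstimulated cells (log2 change 1.20 ± 0.26 SE, 2.3-fold higher, limma adjusted p = 0.0024). Tnf was at 12.89, 11.99, 11.78 and 11.98 in restimulated cells, against 11.21, 11.02, 11.06 and 11.07 in unstimulated cells (log2 change 1.07 ± 0.24 SE, 2.1-fold higher, limma adjusted p = 0.0032). The groups did not overlap for either gene, and restimulated replicate 1 was again the highest. The Th17 cytokines stood lower. Il17a was at 8.93, 6.85, 7.32 and 7.02 in restimulated cells, against 6.44, 6.45, 6.75 and 6.39 in unstimulated cells (log2 change 1.02 ± 0.26 SE, 2.03-fold higher, limma adjusted p = 0.00801), with 3 of the 4 restimulated arrays below 7.4. Without restimulated replicate 1 its log2 change was 0.56 (adjusted p = 0.00181), but the call was lost when only the 2 groups compared were fitted (adjusted p = 0.0708). Il17f was at 8.06, 7.19, 7.62 and 7.40 in restimulated cells, against 6.58, 6.51, 6.87 and 6.48 in unstimulated cells (log2 change 0.96 ± 0.15 SE, 1.94-fold higher, limma adjusted p = 7.22e-05). The unstimulated arrays for both genes, and most of the restimulated ones for Il17a, lay about or under the array medians of near 7, where RMA values are not shown to be above background and folds may understate changes in transcript amount. Il21 did not pass the test, at 10.48, 7.19, 8.52 and 7.95 in restimulated cells, against 7.86, 7.32, 7.03 and 7.82 in unstimulated cells (adjusted p = 0.145), although it passed without restimulated replicate 2 (log2 change 1.48, adjusted p = 0.0409).

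Among 12 chemokine genes 3 were higher (6.49% of all genes were) and 0 lower. Cxcl10 (probe set 10531415), an interferon-inducible ligand of CXCR3, was at 11.66, 10.31, 10.35 and 10.69 in restimulated cells, against 8.70, 7.99, 8.05 and 8.59 in unstimulated cells (log2 change 2.42 ± 0.25 SE, 5.35-fold higher, limma adjusted p = 4.15e-07). No array of one group reached the other. Ccl1 was at 11.38, 7.85, 9.29 and 8.27 in restimulated cells, against 7.53, 7.34, 7.96 and 7.55 in unstimulated cells (adjusted p = 0.0222) and Ccl3, an inflammatory chemokine, at 12.41, 8.77, 9.90 and 9.22 in restimulated cells, against 8.57, 8.11, 8.65 and 8.79 in unstimulated cells (adjusted p = 0.0186). In both the groups overlapped and replicate 1 stood alone. The call for Ccl1 was lost without restimulated replicate 1 (log2 change 0.87, adjusted p = 0.0806) or unstimulated replicate 2 (adjusted p = 0.0615). The call for Ccl3 was lost without unstimulated replicate 2 (adjusted p = 0.0615), which left 1 higher gene in the list, and its log2 change was 0.76 (adjusted p = 0.0227) without restimulated replicate 1. Ccl4 (log2 change 0.60, adjusted p = 0.355), Xcl1 (log2 change 0.35, adjusted p = 0.441) and the Th17 chemokine Ccl20 (log2 change 0.20, adjusted p = 0.339) did not pass the test. Without restimulated replicate 1 the log2 change was 0.02 for Ccl4 and 0.07 for Xcl1, and without both arrays numbered 1 that of Ccl4 was -0.07.

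**Figure D3:**
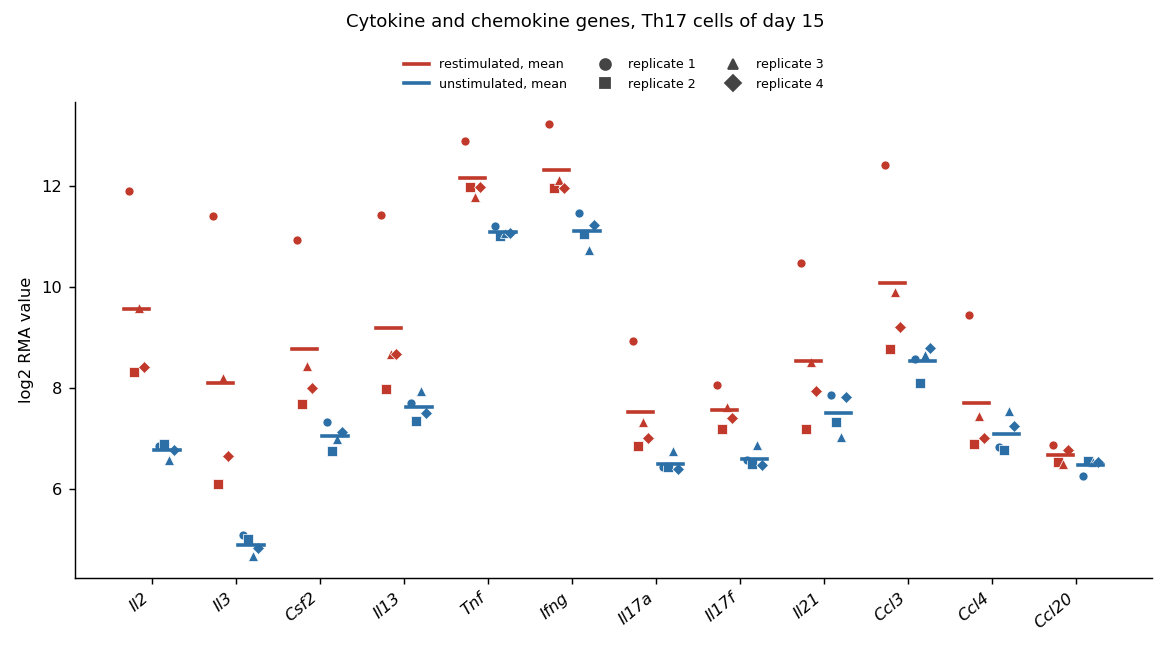
Log2 RMA values of 12 cytokine and chemokine genes in restimulated (red, left of each pair) and unstimulated (blue, right) Th17 cells of day 15. Points are arrays with shapes for replicate numbers, and bars are group means. Restimulated replicate 1 (circles) is the highest red point for every gene plotted, at 11.89 for Il2 and 11.42 for Il3.

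Lineage lists had smaller median changes than the early genes (1.58): 0.08 for the Th17, 0.12 for the Th1 and 0.34 for the Th2 and regulatory list. Of 13 measured Th17 program genes 2, Il17a and Il17f, were higher (6.49% of all genes were) and 0 lower. Il23r was at 8.18, 8.04, 7.95 and 7.71 in restimulated cells, against 8.05, 8.06, 7.70 and 7.73 in unstimulated cells (adjusted p = 0.729). Tbx21, the Th1 master factor T-bet, was at 11.61, 11.39, 11.30 and 11.49 in restimulated cells, against 11.34, 11.07, 11.17 and 11.41 in unstimulated cells (adjusted p = 0.398). These groups overlapped. Of 21 AP-1, IRF and lineage factors 5 were higher (6.49% of all genes were) and 0 lower. Bcl6, a repressor needed for follicular helper cells, was at 10.07, 9.68, 9.18 and 9.23 in restimulated cells, against 8.15, 8.24, 8.47 and 8.25 in unstimulated cells (log2 change 1.26 ± 0.18 SE, 2.4-fold higher, limma adjusted p = 2.80e-05). Nfil3 rose by 1.10 (adjusted p = 0.00135) and Irf4, which T cell receptor strength sets, by 1.01 (adjusted p = 0.00955). Irf1 (0.54) and Bhlhe40 (0.45, named after its value was seen) were the other members higher. The value of Irf4 was 0.66 (adjusted p = 0.0433) without restimulated replicate 1 and 0.70 (adjusted p = 0.0594) without both arrays numbered 1.

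Of 28 quiescence and memory genes 3 were higher and 1 lower, the list median being -0.04. Over all genes 6.49% were higher and 11.1% lower, so these counts say nothing particular about the list. The antiproliferative genes Tob1 (log2 change 1.01, adjusted p = 8.11e-05) and Btg2 (log2 change 0.73, adjusted p = 2.98e-05) rose. Cxcr4, a chemokine receptor, was at 10.77, 10.67, 9.68 and 10.07 in restimulated cells, against 9.64, 9.48, 9.28 and 9.52 in unstimulated cells (adjusted p = 0.0112). That call was lost without restimulated replicate 1 (adjusted p = 0.0529) or 2 (adjusted p = 0.0535). The lower member was Pdk1 (-0.47), a call lost without both arrays numbered 1 (adjusted p = 0.0999). Klf2, which keeps naive and memory cells recirculating, was at 10.96, 11.30, 10.97 and 11.25 in restimulated cells, against 11.24, 11.10, 11.04 and 11.19 in unstimulated cells (adjusted p = 0.939), with overlap. Il7r (log2 change -0.06, adjusted p = 0.793), Ccr7 (log2 change 0.22, adjusted p = 0.428) and S1pr1 (log2 change -0.23, adjusted p = 0.0921) did not pass the test either, although S1pr1 did (log2 change -0.31, adjusted p = 0.0253) with arrays centred on their medians.

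The receptor machinery itself showed small differences. Of 20 genes next to the T cell receptor 3 were higher (6.49% of all genes were) and 0 lower, with a median of 0.02. The 3 were the phosphatase Ptpn22 (0.50), the costimulatory receptor Cd28 (0.31) and the kinase Zap70 (0.30). Without restimulated replicate 1 the count was 0, at adjusted p of 0.0599 for Ptpn22, 0.0523 for Cd28 and 0.124 for Zap70. Cd28 was also lost without restimulated replicate 2 (adjusted p = 0.0502), and Zap70 without restimulated replicate 3 or unstimulated replicates 2 or 3 (adjusted p = 0.057 to 0.0871). Cd3e, a chain of the receptor complex, was at 12.92, 13.00, 13.09 and 13.06 in restimulated cells, against 13.22, 13.20, 13.11 and 13.12 in unstimulated cells (adjusted p = 0.133). It passed with arrays centred on their medians (log2 change -0.23, adjusted p = 0.0207). Of 8 Gimap genes, small GTPases of lymphocytes, 0 passed limma's adjusted test. Actb, the cytoskeletal actin, differed by -0.03 (adjusted p = 0.745). Of 17 cytotoxic effector genes 2 were higher (6.49% of all genes were), the NK receptors Klrc1 (0.74) and Klrk1 (0.58).

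Heat shock genes rose as a group, with 9 of 11 measured members higher (6.49% of all genes were), 0 lower and a median of 0.65. Hspa1a (probe set 10450369), an inducible HSP70, was at 12.58, 12.61, 12.47 and 12.52 in restimulated cells, against 11.08, 8.65, 7.60 and 7.86 in unstimulated cells (log2 change 3.75 ± 0.51 SE, 13.5-fold higher, limma adjusted p = 1.75e-05). The restimulated arrays lay within a narrow range, and unstimulated replicate 1 lay more than 2 units above the other unstimulated arrays. Hsph1, an exchange factor for HSP70, was at 11.70, 11.52, 11.11 and 11.29 in restimulated cells, against 9.99, 9.98, 9.48 and 10.09 in unstimulated cells (log2 change 1.52 ± 0.17 SE, 2.87-fold higher, limma adjusted p = 1.43e-06). Dnajb1, an HSP40 partner, was at 11.25, 11.41, 11.04 and 11.20 in restimulated cells, against 10.48, 10.20, 9.79 and 10.28 in unstimulated cells (log2 change 1.03 ± 0.13 SE, 2.05-fold higher, limma adjusted p = 7.58e-06). Bag3 rose by 1.04 (adjusted p = 2.45e-06).

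The integrated stress response and amino acid genes followed, with 9 of 22 higher and 1 (Wars, -0.36) lower (6.49% and 11.1% of all genes were). The median of this list was 0.33. Ppp1r15a, named by its rank and not a member of that list, encodes GADD34, the subunit that reverses eIF2 alpha phosphorylation. It was at 10.93, 11.07, 10.52 and 11.17 in restimulated cells, against 9.09, 8.53, 7.95 and 8.40 in unstimulated cells (log2 change 2.43 ± 0.22 SE, 5.39-fold higher, limma adjusted p = 5.48e-08), without overlap. Ddit3, which encodes CHOP, was at 9.37, 9.96, 9.34 and 9.79 in restimulated cells, against 8.44, 8.36, 8.09 and 8.42 in unstimulated cells (log2 change 1.29 ± 0.15 SE, 2.44-fold higher, limma adjusted p = 1.41e-06). Sesn2 rose by 1.21 (adjusted p = 1.39e-04) and the amino acid transporter Slc38a2 by 0.85 (adjusted p = 5.45e-07). Chac1, a glutathione-degrading target of ATF4, was at 8.99, 7.92, 7.99 and 8.10 in restimulated cells, against 7.61, 7.58, 8.20 and 7.57 in unstimulated cells and did not pass the test (adjusted p = 0.108), although it did without unstimulated replicate 3 (adjusted p = 0.0434).

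Apoptosis genes that passed the test were mostly higher. Of 20 measured apoptosis genes 7 were higher and 1 lower (6.49% and 11.1% of all genes were). Gadd45b, a stress sensor that also feeds p38, was at 12.12, 11.84, 11.63 and 11.72 in restimulated cells, against 10.14, 9.54, 9.24 and 9.21 in unstimulated cells (log2 change 2.30 ± 0.18 SE, 4.92-fold higher, limma adjusted p = 5.49e-09). Pmaip1, which encodes the BH3 protein NOXA, was at 9.66, 9.57, 9.12 and 9.53 in restimulated cells, against 8.51, 8.38, 8.29 and 8.34 in unstimulated cells (log2 change 1.09 ± 0.12 SE, 2.13-fold higher, limma adjusted p = 1.07e-06). Neither gene overlapped between the groups. Bcl2l11, which encodes BIM and was named after its value was seen, rose by 0.69. Bid, a BH3 protein that death receptors activate, was lower without overlap (log2 change -0.61 ± 0.13 SE, 1.52-fold lower, limma adjusted p = 0.00194), and the lower count was 3 without restimulated replicate 4 or unstimulated replicate 3 and 2 without restimulated replicate 1.

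Interferon-response genes were called in 3 of 19 cases, all higher (6.49% of all genes were), with a median of 0.22. Ifit1, an RNA-binding antiviral protein, was at 11.68, 11.10, 10.79 and 11.48 in restimulated cells, against 10.01, 9.72, 9.44 and 10.06 in unstimulated cells (log2 change 1.45 ± 0.20 SE, 2.74-fold higher, limma adjusted p = 1.40e-05). Mx2, a GTPase, was at 7.28, 7.43, 7.13 and 7.75 in restimulated cells, against 6.24, 6.34, 6.14 and 6.76 in unstimulated cells (log2 change 1.02 ± 0.17 SE, 2.03-fold higher, limma adjusted p = 1.20e-04). Neither gene overlapped between the groups. Oasl1 rose by 0.59.

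Of 25 cell cycle genes 12 were lower after restimulation (11.1% of all genes were), 0 were higher and 13 did not pass the test, the median being -0.26. Mcm2, part of the replicative helicase, was at 10.47, 10.69, 10.75 and 10.90 in restimulated cells, against 11.31, 11.27, 11.16 and 11.28 in unstimulated cells (log2 change -0.55 ± 0.09 SE, 1.47-fold lower, limma adjusted p = 1.03e-04). Rrm2, a subunit of ribonucleotide reductase, was at 10.43, 10.64, 10.77 and 11.09 in restimulated cells, against 11.41, 11.37, 11.02 and 11.33 in unstimulated cells (adjusted p = 0.0027), and the groups overlapped at restimulated replicate 4 and unstimulated replicate 3. The count of lower genes was 5 without restimulated replicate 1 and 7 without restimulated replicate 2 or unstimulated replicate 1. The mitotic kinase Plk1 differed by -0.50 (adjusted p = 0.00821; 0.0831 without both arrays numbered 1) and Cdk4, of the cycle entry list, by -0.36. In Th17 cells of day 5 restimulation called 12 of the 25 cell cycle genes lower (4.08% of all genes were), with a median of -0.29. In Th1 cells of day 15 it called 9 of the 25 lower (4.63% of all genes were), with a median of -0.39. Erythroid markers, given below, were also lower in the 4 restimulated arrays of day 15 Th17 cells, and their part in the result was not tested.

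Of 16 cholesterol and lipid synthesis genes 7 were lower (4 without restimulated replicate 1) and 1 higher, where 11.1% and 6.49% of all genes were. The higher one was Insig1, which retains the sterol sensor, at 10.67, 11.12, 10.57 and 10.89 in restimulated cells, against 10.01, 9.71, 9.31 and 9.86 in unstimulated cells (log2 change 1.09 ± 0.14 SE, 2.13-fold higher, limma adjusted p = 1.27e-05). Of the lower ones Sqle differed by -0.42 and Fdps by -0.43, and the Fdps call was lost without restimulated replicate 1 (adjusted p = 0.0546). Without both arrays numbered 1 both calls were lost (adjusted p = 0.067 for Sqle and 0.0744 for Fdps). Ribosome biogenesis genes went both ways, with 3 of 29 higher (Npm1, Nop58 and Ncl) and 5 lower (6.49% and 11.1% of all genes were). Such counts are not far from those shares and show nothing particular about the list. The higher count was 0 without restimulated replicate 2 or unstimulated replicate 3, and 1 without restimulated replicate 1 (adjusted p of the lost genes 0.0626 to 0.0893). Dkc1, the pseudouridine synthase, was at 8.78, 8.70, 8.85 and 8.95 in restimulated cells, against 9.66, 9.52, 9.20 and 9.55 in unstimulated cells (log2 change -0.66 ± 0.12 SE, 1.58-fold lower, limma adjusted p = 5.92e-04), and Polr1b, a subunit of RNA polymerase I, fell by 0.46 (adjusted p = 0.00293). Of 16 glycolysis genes 1 was higher and 2 lower, close to the shares over all genes. The higher count was 3 without restimulated replicate 3. The lower count was 1 without restimulated replicate 3 or unstimulated replicates 1 or 2, and 4 without restimulated replicate 4.

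Erythroid transcripts are described apart from the rest, because their fall was known from earlier results when they were set apart, so that their counts are a description and their direction is no test. Of 36 measured genes of the list 28 were lower in restimulated cells (11.1% of all genes were), 16 of them at least 2-fold, and 1 was higher, with a median of -0.87. The list mean was 7.51, 7.53, 7.69 and 7.82 on restimulated arrays, against 8.70, 8.47, 8.19 and 8.54 on unstimulated arrays. Among restimulated arrays the mean was lowest in replicate 1, the array with the highest cytokine values. Globin genes are not used here.

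Rhag, a membrane ammonia channel of the Rh complex, was at 6.55, 6.49, 6.84 and 6.89 in restimulated cells, against 9.26, 8.54, 7.79 and 8.98 in unstimulated cells, 3.87-fold lower. Car1, the carbonic anhydrase of red cells, was at 9.69, 9.91, 10.66 and 10.57 in restimulated cells, against 12.38, 12.09, 11.66 and 12.19 in unstimulated cells, 3.66-fold lower, and Car2 at 9.32, 9.54, 10.00 and 10.09 in restimulated cells, against 11.52, 11.25, 10.66 and 11.40 in unstimulated cells, 2.77-fold lower. The groups did not overlap for these 3 genes, and unstimulated replicate 3 was the lowest of its group for each. Ermap, an erythroid membrane adhesion protein, was at 8.01, 8.02, 8.22 and 8.39 in restimulated cells, against 10.14, 9.73, 9.61 and 9.76 in unstimulated cells, and the water channel Aqp1 at 7.78, 7.92, 8.21 and 8.60 in restimulated cells, against 10.15, 9.69, 9.38 and 9.92 in unstimulated cells. The aspartic protease gene Ctse was at 10.08, 10.48, 10.77 and 10.59 in restimulated cells, against 12.04, 11.71, 11.33 and 11.75 in unstimulated cells. C1qtnf12 was at 8.85, 8.95, 9.32 and 9.41 in restimulated cells, against 10.53, 10.20, 9.88 and 10.43 in unstimulated cells. All 4 were lower in every restimulated array than in any unstimulated one.

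Of the erythroid transcription factors, named after their values were seen, Gata1 changed by -1.55, Gfi1b by -1.34 and Klf1 by -1.09 on the log2 scale. The anion exchanger Slc4a1 was at 9.30, 9.39, 9.53 and 9.36 in restimulated cells, against 10.98, 10.28, 9.75 and 10.42 in unstimulated cells. Genes of haem synthesis moved less: Alas2 was at 7.33, 7.35, 7.44 and 7.30 in restimulated cells, against 8.06, 7.84, 7.36 and 7.97 in unstimulated cells and Fech at 8.51, 8.67, 8.76 and 8.74 in restimulated cells, against 9.38, 9.24, 8.61 and 9.41 in unstimulated cells, with overlapping groups. Calls for both were lost without any one of restimulated replicates 1 or 2 or unstimulated replicates 1, 2 or 4 (adjusted p = 0.0592 to 0.096 for Alas2 and 0.0502 to 0.0769 for Fech). Slc25a37, the mitochondrial iron carrier, was at 9.18, 9.46, 9.50 and 9.59 in restimulated cells, against 9.39, 9.28, 9.25 and 9.57 in unstimulated cells, with overlap. Ypel4 was the 1 higher member, a call lost without restimulated replicate 1 (adjusted p = 0.0941) or 2 (adjusted p = 0.0504). In these bulk samples fewer cells of a type and less RNA per cell cannot be told apart.

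Among markers of other cell types, 3 granule genes were lower. Of 18 neutrophil and myeloid genes 4 were lower (11.1% of all genes were) and 0 higher: Mpo, at 7.81, 8.71, 9.80 and 9.58 in restimulated cells, against 9.96, 10.68, 10.22 and 10.47 in unstimulated cells (log2 change -1.35 ± 0.32 SE, 2.56-fold lower, limma adjusted p = 0.00463), Prtn3, at 6.58, 6.97, 6.91 and 7.18 in restimulated cells, against 8.02, 8.38, 8.01 and 8.40 in unstimulated cells (log2 change -1.29 ± 0.11 SE, 2.45-fold lower, limma adjusted p = 2.50e-08), Elane (-1.23) and Csf1r (-0.46). The Csf1r call was lost without restimulated replicate 2 (adjusted p = 0.0845) or unstimulated replicate 2 (adjusted p = 0.0551). The first 3 encode proteases and an oxidase of granulocyte precursors, and their groups did not overlap. The list mean was 6.68 to 7.23 in restimulated cells and 6.99 to 7.67 in unstimulated cells. Among platelet genes Ppbp was at 6.41, 6.85, 5.74 and 6.13 in restimulated cells, against 6.98, 7.31, 7.21 and 7.66 in unstimulated cells (log2 change -1.01 ± 0.21 SE, 2.02-fold lower, limma adjusted p = 0.00186), and Pf4 differed by -0.40, so that 2 of 6 were lower. The Pf4 call was lost without restimulated replicates 2 or 3 or unstimulated replicate 2 (adjusted p = 0.0531 to 0.0666). The B cell and dendritic counts were close to the share over all genes. In the B cell list 1 of 11 genes was lower, a count of 0 without restimulated replicates 1 or 2 or unstimulated replicates 2 or 3. In the dendritic list 1 of 11 was lower, a count of 0 without restimulated replicates 2 or 3 or unstimulated replicate 3. In the NK and CD8 list 0 of 7 passed limma's adjusted test, and 1 did without restimulated replicate 4. RMA values have no zero, so no marker can be said to be absent.

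**Figure D4:**
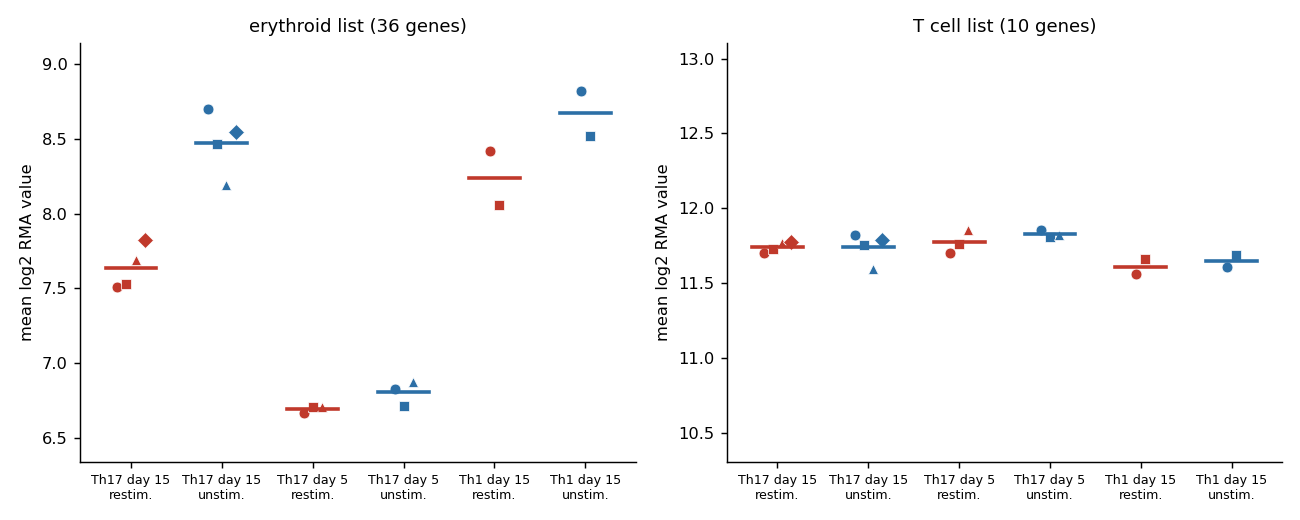
Mean log2 RMA value of the 36 erythroid genes (left panel) and the 10 T cell genes (right panel) on each array, for restimulated (red) and unstimulated (blue) cells of 3 sets. Points are arrays with shapes for replicate numbers, and bars are group means. In Th17 cells of day 15 the erythroid mean is 7.51 to 7.82 after restimulation, against 8.19 to 8.70 without, whereas the T cell mean overlaps between the groups.

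The largest falls outside the erythroid list ranked the unstimulated arrays much as the erythroid mean did. Ces2g, a carboxylesterase, was at 6.90, 6.83, 7.42 and 7.16 in restimulated cells, against 9.68, 9.10, 8.62 and 9.35 in unstimulated cells (log2 change -2.11 ± 0.21 SE, 4.32-fold lower, limma adjusted p = 3.23e-07). Pklr, the pyruvate kinase of liver and red cells, was at 7.63, 7.63, 8.04 and 8.24 in restimulated cells, against 10.33, 9.89, 9.20 and 10.09 in unstimulated cells (log2 change -1.99 ± 0.19 SE, 3.98-fold lower, limma adjusted p = 1.28e-07). Unstimulated replicate 3 was the lowest of its group in both genes, and replicate 1 the highest, the order of the erythroid mean. Gatm, which makes a creatine precursor, was at 7.40, 7.51, 7.79 and 7.93 in restimulated cells, against 9.90, 9.48, 8.73 and 9.73 in unstimulated cells (log2 change -1.80 ± 0.22 SE, 3.49-fold lower, limma adjusted p = 2.99e-06). Slc40a1, the iron exporter ferroportin, was at 5.65, 5.68, 5.75 and 5.79 in restimulated cells, against 7.49, 7.25, 6.78 and 7.22 in unstimulated cells (log2 change -1.46 ± 0.22 SE, 2.76-fold lower, limma adjusted p = 4.48e-05). Eng, a TGF-beta co-receptor, was at 7.27, 6.87, 7.64 and 7.50 in restimulated cells, against 9.09, 8.78, 8.66 and 8.76 in unstimulated cells (log2 change -1.50 ± 0.14 SE, 2.83-fold lower, limma adjusted p = 8.02e-08). The other genes named by rank were Tlcd4 (-1.86), Fads2 (-1.63), Nxpe2 (-1.54), Slc25a21 (-1.46), Nt5dc2 (-1.45), Slc43a1 (-1.42) and Slc38a5 (-1.38). The rule that named these genes required that the groups not overlap. The part of erythroid or other host cells in these falls was not tested. With the erythroid mean as a covariate 206 genes were higher and 66 lower, but that mean does not overlap between the groups, so it takes up the contrast by construction.

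The next comparison asked where the response at day 15 differed from that of Th17 cells at day 5, by testing the difference of the changes with no array shared. Of 19938 genes 88 (0.441%) had a more positive change at day 15 and 146 (0.732%) a more negative one. Restimulation alone called 795 genes higher (3.99%) and 814 lower (4.08%) at day 5, and 439 of the higher ones (55.2% of 795 and 34.0% of 1293) were also higher at day 15. Of the lower ones 430 were shared (52.8% of 814 and 19.5% of 2205). The difference counts lean on single arrays. The higher count was 33 to 55 without any one of day 5 restimulated replicates 1 or 2, day 5 unstimulated replicates 1, 2 or 3, day 15 restimulated replicate 2 or day 15 unstimulated replicate 2, and 133 without day 15 restimulated replicate 1. The lower count was 75 to 97 without day 15 restimulated replicate 2, day 15 unstimulated replicate 2, day 5 restimulated replicates 1 or 3 or day 5 unstimulated replicates 1 or 2.

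Th17 cytokines responded less at day 15. Il17a had a log2 change of 1.02 at day 15, against 3.39 at day 5 (difference -2.36 ± 0.40 SE, limma adjusted p = 0.00246). In Th17 cells of day 5 it was at 10.21 to 10.31 in restimulated cells, against 6.71 to 7.15 in unstimulated cells. Il17f had a log2 change of 0.96 at day 15, against 3.00 at day 5 (difference -2.05 ± 0.23 SE, limma adjusted p = 5.76e-05), where it was at 9.66 to 10.18 in restimulated cells, against 6.80 to 7.11 in unstimulated cells. For both genes the unstimulated levels lay below 7.2 on either day, and every restimulated array of day 15 lay below every one of day 5. Ccl20 had a log2 change of 0.20 at day 15, against 1.55 at day 5 (difference -1.35 ± 0.21 SE, limma adjusted p = 9.28e-04), where it was at 7.63 to 8.53 in restimulated cells, against 6.29 to 6.54 in unstimulated cells. These were 3 of the 13 Th17 program genes (0.732% of all genes had a more negative change), and 0 members had a more positive change. Ifng changed by 1.20 at day 15 and 1.26 at day 5 and did not pass this test. The lean was not confined to Th17 genes. In the whole cytokine list 4 of 23 genes had a positive difference, with a median of -0.44, though only Il17a and Il17f passed. Among chemokines 3 of 12 were positive, with a median of -0.29. Of all 19938 genes 6872 were positive, with a median of -0.09.

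Chac1 also responded less, with a log2 change of 0.51 at day 15, against 2.85 at day 5 (difference -2.34 ± 0.33 SE, limma adjusted p = 4.96e-04). At day 5 it was at 10.56 to 10.85 in restimulated cells, against 7.40 to 8.19 in unstimulated cells. It was 1 of 4 members of the stress and amino acid list with a more negative change, out of 22 (0.732% of all genes had). In that list 0 members had a more positive change, and the median difference was -0.38, against -0.09 for all genes. Mt2, a metallothionein, and Kit, the stem cell factor receptor, had a negative mean change at day 15 and a positive one at day 5. Mt2 was at 10.83, 9.74, 9.93 and 9.91 in restimulated cells, against 11.25, 10.44, 10.39 and 10.79 in unstimulated cells at day 15 (log2 change -0.61, adjusted p = 0.0748), and at 11.41 to 12.11 in restimulated cells, against 9.09 to 9.91 in unstimulated cells at day 5 (log2 change 2.09). The difference was -2.70 ± 0.36 SE, limma adjusted p = 4.96e-04, and Mt2 passed the day 15 test without restimulated replicate 1 (adjusted p = 0.011). Kit was at 7.32, 7.00, 6.96 and 7.16 in restimulated cells, against 7.89, 7.77, 7.68 and 7.94 in unstimulated cells at day 15 (log2 change -0.71, adjusted p = 3.66e-04), and at 7.85 to 8.60 in restimulated cells, against 6.79 to 7.13 in unstimulated cells at day 5 (log2 change 1.24). Its difference was -1.95 ± 0.19 SE, limma adjusted p = 1.41e-05.

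Ppp1r15a and some heat shock and interferon genes had a more positive change at day 15. Of 11 heat shock genes 3 had a more positive change and 0 a more negative one (0.441% and 0.732% of all genes had). The stress and amino acid list, which does not hold Ppp1r15a, went the other way, as given above. Ppp1r15a had a log2 change of 2.43 at day 15, against 0.67 at day 5 (difference 1.76 ± 0.33 SE, limma adjusted p = 0.00648), where it was at 9.57 to 10.47 in restimulated cells, against 9.17 to 9.77 in unstimulated cells. Dnajb1 changed by 1.03 at day 15 and by -0.04 at day 5 (difference 1.07 ± 0.20 SE, limma adjusted p = 0.00634), where it was at 10.33 to 10.83 in restimulated cells, against 10.42 to 10.85 in unstimulated cells. Unstimulated cells of day 15 lay mostly below those of day 5 in this gene. Ifit1 changed by 1.45 at day 15 and by -0.24 at day 5 (difference 1.69 ± 0.30 SE, limma adjusted p = 0.0042), where it was at 8.76 to 9.54 in restimulated cells, against 8.93 to 9.61 in unstimulated cells. For Mx2 the difference was 1.37 ± 0.25 SE, limma adjusted p = 0.00603. Of 19 interferon genes 4 had a more positive change and 0 a more negative one, (0.441% and 0.732% of all genes had), with a list median of 0.68 against -0.09 for all genes. The list itself had a median change of 0.22 at day 15, against -0.44 at day 5, where 5 of the 19 genes were lower and 0 higher. The day 5 median thus lay farther from 0 than that of day 15.

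Among genes that passed narrowly were Fosb (2.81 ± 0.67 SE, limma adjusted p = 0.0382), Fos (2.37 ± 0.58 SE, limma adjusted p = 0.0438), Hspa1a (3.30 ± 0.79 SE, limma adjusted p = 0.0372), Tnfaip3 (0.86 ± 0.20 SE, limma adjusted p = 0.032) and Bag3 (0.87 ± 0.19 SE, limma adjusted p = 0.0196). At day 5 Hspa1a was at 10.53 to 11.68 in restimulated cells, against 10.00 to 11.70 in unstimulated cells, with overlap, and Fos at 9.14 to 10.08 in restimulated cells, against 9.23 to 9.96 in unstimulated cells, so that unstimulated cells of day 5 already stood about where unstimulated replicate 1 of day 15 did. All 5 calls were lost without day 5 restimulated replicate 1, without day 5 unstimulated replicates 2 or 3 and without day 15 restimulated replicate 2 (adjusted p = 0.053 to 0.116). Some of the 5 were also lost without day 5 restimulated replicates 2 (all but Bag3) or 3 (Fosb and Fos), day 5 unstimulated replicate 1 (Fosb and Fos), day 15 unstimulated replicates 2 or 4 (Fosb, Fos and Hspa1a) or 3 (all but Bag3), or day 15 restimulated replicates 3 (Hspa1a) or 4 (Fos), at adjusted p of 0.0531 to 0.097.

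**Figure D5:**
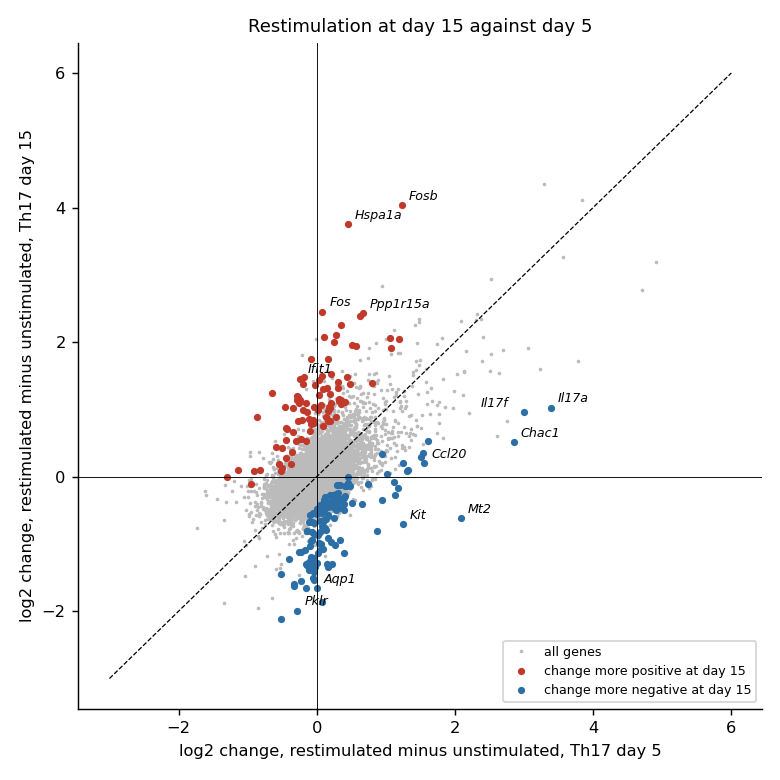
Log2 change with restimulation in Th17 cells of day 15 (vertical axis) against that in Th17 cells of day 5 (horizontal axis), 1 point per gene. Red points (88) had a more positive change at day 15, blue points (146) a more negative one, and the dashed line marks equal change. Il17a and Il17f lie far right of the line, and Fosb and Hspa1a above it.

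Of the erythroid list 11 of 36 genes had a more negative change at day 15 and 0 a more positive one (0.732% and 0.441% of all genes had). The list was set apart for its known fall at day 15, so this count is a description and no test. At day 5 the list mean stood at 6.67 to 6.71 in restimulated cells and 6.72 to 6.87 in unstimulated cells. Both lay under the medians of the same arrays, which were 6.98 to 7.03 and 6.87 to 6.96. Aqp1 changed by -1.66 at day 15, and at day 5 it was at 6.63 to 7.21 in restimulated cells, against 6.69 to 7.02 in unstimulated cells. Ermap changed by -1.65 at day 15 and -0.15 at day 5. Car1 was lower in restimulated cells at day 5 too, at 5.74 to 5.99 in restimulated cells, against 7.11 to 7.33 in unstimulated cells. Of the genes named by rank, Pklr changed by -1.99 and Eng by -1.50 at day 15, and by -0.28 and -0.05 at day 5.

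The last comparison set the response of Th17 cells against that of Th1 cells of the same day. By limma 0 of 19938 genes (0%) passed at an adjusted p under 0.05, the smallest adjusted p being 0.0788, and 1216 had an unadjusted p under 0.05. That count hung on the Th1 cells: without Th1 restimulated replicate 2 there were 172 genes with a more positive and 100 with a more negative change in Th17 cells, and without other single arrays 0 to 3 and 0 to 9. The 2 Th1 arrays per condition leave wide intervals. The intervals below are for single genes and are not corrected for the choice of genes, and none of these genes passed the adjusted test. For Il13 the difference was -3.49, 95% interval -5.20 to -1.78 (change 1.56 in Th17 cells and 5.05 in Th1 cells). For Il3 it was -4.05, 95% interval -6.59 to -1.51, and for Cxcl10 1.33, 95% interval 0.43 to 2.22. Il17a changed by 1.02 in Th17 cells and 0.18 in Th1 cells, a difference of 0.84, 95% interval -0.10 to 1.77.

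Of the 1293 genes higher in Th17 cells 399 were among the 529 (2.65% of all genes) higher in Th1 cells of day 15, which is 30.9% and 75.4% of each set. Of the 2205 lower genes 653 were among the 924 (4.63%) lower in Th1 cells, which is 29.6% and 70.7%. In Th17 cells Nr4a1 changed by 2.93, Tnfaip3 by 2.05 and Ifng by 1.20, and in Th1 cells by 3.33, 1.48 and 1.30. The erythroid mean was 8.42 and 8.06 in restimulated Th1 cells, against 8.82 and 8.52 in unstimulated ones. Rhag changed by -1.95 in Th17 cells and -0.75 in Th1 cells, a difference of -1.20, 95% interval -2.18 to -0.23.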

How the data were processed

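The authors deposited log2 values made with RMA in Affymetrix Expression Console, per the submitters' processing notes, which give no versions. RMA corrects background, equalises the distributions of arrays and summarises probes, and it compresses differences among dim probe sets. RNA input was 150 ng per array. Detection calls were not used. Array number and dim signal, not read depth, limit the precision.

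Of 35556 probe sets 21789 carried 1 gene symbol in the platform annotation, 1621 several and 12146 none, and only the first kind was used. Identifiers of 21698 matched the RefSeq gene table, and 0 symbols were changed. The probe set with the highest mean stood for each of 999 genes with more than 1, leaving 19938 genes.

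limma 3.58.1 in R 4.3.3 (lmFit, eBayes) was run on the 24 post-transfer arrays, with a coefficient for each of 8 groups, 16 residual degrees of freedom and no replicate block. The threshold was an adjusted p under 0.05, by Benjamini-Hochberg across the 19938 genes. No other normalisation was applied.

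The 32 gene lists held 616 entries, of which 564 matched, 526 of them distinct genes. The members and lists were chosen with earlier results of these data known. Named genes were the 12 largest called changes each way without overlap (the erythroid list and clone names left out), up to 4 called members of each list each way, up to 5 each way for each difference of changes, a fixed panel, and any gene said to be named after its values were seen. Not all genes that this rule gave are described. Snord58b and Vaultrc5, among the 5 largest more positive differences from day 5, are left out. The restimulation test was tested on simulated data in which 200 of 19938 genes had been shifted. It recovered 98% of those at a log2 change of 1 and 100% at 2, and called 13 unshifted genes. At a log2 change of 1 the test against day 5 recovered 90% and that against Th1 cells 88%. The simulated noise was independent between arrays, with the same spread in every group. It therefore cannot show how the tests fare where a single array stands apart in many genes. Promoters were matched by symbol to RefSeq GRCm38.p6, and motif letters were searched on both strands. Alternatives were the compared groups alone, a replicate block, a filter on low genes, cyclic loess, median centring, the mean of probe sets, a trended robust prior, array weights, the erythroid mean as a covariate, and leaving out arrays.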

Additional observations from a re-analysis of the deposited data

Results flagged for a closer look

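In 24 of 354 groups of 4 arrays, over the 145 named genes and the lists, 1 array stood far from the other 3 by Dixon's test, and chance gives about 5% of groups. Of these, 9 were restimulated replicate 1. It was high for Rgs16 (11.56, others 9.36 to 9.56), Il2ra (12.56, others 11.57 to 11.60), Myc (11.87, others 10.66 to 10.75), Ifng (13.23, others 11.95 to 12.13), Xcl1 (8.27), Relb (10.06), Ptpn22 (12.16) and the mean of the activation and costimulatory list (10.60, others 10.00 to 10.05), and low for Pdk1 (7.69).

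Another 8 were unstimulated replicate 3. It was high for the response genes Chac1 (8.20, others 7.57 to 7.61), Fosl1 (7.27), Egr1 (10.30) and Il17a (6.75). It was low for Tnfaip3 (9.67), for Nop58 (8.66, others 9.27 to 9.34) and Ncl (10.95), which serve ribosome assembly, and for the mean of the ribosome biogenesis list (9.60, others 9.82 to 9.84). The other 7 were Srf (10.59) and Gfi1b (8.77), high in restimulated replicate 4, Nfkbia (11.77), low in restimulated replicate 3, Nfil3 (7.60), high in unstimulated replicate 1, Ccl20 (6.27), low in unstimulated replicate 1, Il7r (12.53), high in unstimulated replicate 2, and the mean of NK and CD8 genes (5.69), low in unstimulated replicate 4.

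By limma's test of day 15 against day 5 in Th17 cells, 0.441% of all genes had a more positive change and 0.732% a more negative one. Some genes were named for passing this test and others for a large change at day 15, so the count below is a description. The change with restimulation differed between the 2 days for 34 of the named genes. It was more positive at day 15, in log2 units, for Hspa1a (3.30), Fosb (2.81), Fos (2.37), Dusp1 (1.84), Ppp1r15a (1.76), Ifit1 (1.69), Zfp36 (1.42), Mx2 (1.37), Dnajb1 (1.07), Bag3 (0.87) and Tnfaip3 (0.86). The Dusp1 call was lost without day 15 restimulated replicate 2, day 5 restimulated replicate 1 or day 5 unstimulated replicates 1 or 3 (adjusted p = 0.0525 to 0.0594), and the Zfp36 call without day 5 restimulated replicate 1 (adjusted p = 0.0506).

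It was more negative at day 15 for Mt2 (-2.70), Il17a (-2.36), Chac1 (-2.34), Il17f (-2.05), Kit (-1.95) and Ccl20 (-1.35). Among genes that fell at day 15 it was more negative for Tlcd4 (-1.93), Pklr (-1.71), Aqp1 (-1.66), Ces2g (-1.59), C1qtnf12 (-1.52), Ermap (-1.50), Nxpe2 (-1.50), Eng (-1.45), Slc43a1 (-1.37), Gata1 (-1.32), Gfi1b (-1.32), Fads2 (-1.30), Slc38a5 (-1.27), Prtn3 (-1.14), Nt5dc2 (-0.93), Klf1 (-0.92) and Elane (-0.83). The Elane call was lost without day 15 restimulated replicates 1 or 2, day 15 unstimulated replicates 2 or 4, day 5 restimulated replicates 1 or 2 or day 5 unstimulated replicates 1 or 3 (adjusted p = 0.0501 to 0.107). With only the groups compared, the calls for Klf1 (adjusted p = 0.0612), Elane (0.111), Nxpe2 (0.0513), Hspa1a (0.0795) and Tnfaip3 (0.0732) were lost. The Nxpe2 call was lost without day 15 restimulated replicate 2, day 15 unstimulated replicate 2, day 5 restimulated replicates 1 or 3 or day 5 unstimulated replicates 1 or 2 (adjusted p = 0.0521 to 0.0646).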

How the results depend on the processing

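For restimulation at day 15 the counts higher and lower were 1293 and 2205. They were 1004 and 1200 with only the 2 groups compared, 2097 and 1671 after cyclic loess, 1029 and 5863 with arrays centred on their medians, 1557 and 3458 with array weights, 973 and 1201 without both arrays numbered 1, and 206 and 66 with the erythroid mean as a covariate. Leaving out 1 array at a time gave 1038 to 1332 and 1349 to 2943. The median of all genes was -0.01 after loess and -0.17 after centring, against -0.08 as deposited. For day 15 against day 5 the counts 88 and 146 became 68 and 93 with only the groups compared, 82 and 91 among genes above the median level, 172 and 116 after loess, 218 and 404 with array weights, 91 and 51 with the covariate and 133 and 183 without both arrays numbered 1, and ran over 33 to 133 and 75 to 217 with 1 array left out. For Th17 against Th1 cells the counts 0 and 0 became 1 and 0 with only the groups compared, 0 and 1 after centring, 3 and 0 with the covariate and 1 and 6 without both arrays numbered 1, and ran over 0 to 172 and 0 to 100 with 1 array left out. Of the named genes that passed the test, 13 reversed in direction, all under the erythroid covariate: Rhag (0.37), Car2 (0.037), C1qtnf12 (0.0063), Fech (0.52), Alas2 (0.31), Slc4a1 (0.53), Tlcd4 (0.21), Nxpe2 (0.38, and 0.16 in its difference from day 5), Slc25a21 (0.12), Rrm2 (0.32), Plk1 (0.12), Sqle (0.089) and Dkc1 (0.075). Of those that did not pass, 7 changed sign under some setting (Myc, Klf2, Cd4, Ccl4, Ccl20, Mt2 and Slc25a37). Restimulation calls of named genes were lost for 13 with only the groups compared (adjusted p = 0.0566 to 0.128) and for 23 without both arrays numbered 1 (0.0531 to 0.165). The covariate does not overlap between the groups and takes up their contrast by construction. With the replicate number as a block the counts were 1350 and 2096 for restimulation, 129 and 142 against day 5, and 0 and 1 against Th1 cells. The labels do not say that equal numbers mark parts of 1 divided sample, so the main test has no block. Correlations of same-numbered deviations (-0.17, -0.13, 0.00 and 0.21) lay within those of unlike-numbered pairs (-0.26 to 0.22). They cannot settle whether equal numbers mark parts of 1 sample. Limits are the 4 arrays a group, possibly technical replicates, no detection calls for dim probe sets, and unstimulated parts of unstated handling.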

Other observations

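Small nucleolar RNAs rose as families, and they were noticed only after the values were seen, so that the families have no test. Of 31 box C/D genes (Snord), which guide methylation of ribosomal RNA, 29 were called higher in restimulated cells and 0 lower (6.49% of all genes were called higher), with a median log2 change of 1.00. Of 20 box H/ACA genes (Snora), which guide pseudouridylation, 18 were higher and 0 lower, with a median of 1.01. The medians were 0.31 and 0.28 for Th17 cells of day 5, and 0.29 and 0.39 for Th1 cells of day 15. Snord47 was at 9.36, 9.66, 9.38 and 9.10 in restimulated cells, against 7.87, 7.08, 6.26 and 7.80 in unstimulated cells. Snord82 was at 10.66, 10.63, 10.51 and 10.33 in restimulated cells, against 9.26, 8.30, 7.22 and 8.94 in unstimulated cells. Snora73b was at 10.50, 10.70, 10.49 and 10.52 in restimulated cells, against 8.86, 8.98, 8.82 and 9.45 in unstimulated cells. Unstimulated replicate 3 was the lowest of its group in these 3 genes, and the groups did not overlap.

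Most such RNAs lie in introns of host genes, among them genes of translation. Of 67 ribosomal protein genes (Rpl, Rps) 16 were higher (6.49% of all genes were) and 0 lower, with a median of 0.14. Of 43 mitochondrial complex I genes (Nduf) 0 were higher and 11 lower (11.1% of all genes were called lower), with a median of -0.08, that of all genes.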
